A study of Saccharomyces cerevisiae with 6 samples.

Results

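The genes described here make amino acids in budding yeast: the enzymes of the arginine, histidine, lysine, branched-chain, aromatic, serine, proline and threonine pathways, the lysine regulator LYS14, and GCN4, the transcription factor that acts on many of them. The 57 genes were listed by name for their known function, at a time when earlier results of these data were known. Of these, 56 had a probe set of their own on the array and 55 were tested, out of 5656 genes with a probe set of their own and 5380 tested in all. ARG5,6 had no probe set listed for it alone, and TRP1 lay below the filter on low signals. The Affymetrix arrays measured mRNA in 3 wild-type samples and in 3 samples of a strain whose histone H3 carries arginine in place of lysines 4 and 79, called K4,79R or the mutant below. Set1 normally methylates the first of these lysines and Dot1 the second, and an arginine there does not accept either mark. Both groups grew in YPD, a rich glucose medium that supplies amino acids, and were collected in mid-logarithmic growth. The strain background, its marker alleles, and how the mutant histone gene was introduced are not given in the sources used here, nor is it said that replicates were independent cultures. The p-values therefore cover no more than the variation among these arrays, some of which may be technical.

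Amino acid synthesis in yeast is governed by general control. When amino acids run short, uncharged tRNA activates the kinase Gcn2, which phosphorylates the initiation factor eIF2; most translation then slows while that of the GCN4 message, held back by upstream reading frames, goes up. Gcn4 protein switches on enzymes of nearly every amino acid pathway, and so its activity need not follow the level of its mRNA. Single pathways have controls of their own besides, such as the Arg80, Arg81, Arg82 and Mcm1 proteins for arginine, Leu3 for leucine, Lys14 for lysine and Aro80 for aromatic amino acid breakdown.

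Each probe set has a signal intensity on every array, on a linear scale, and precision is limited by how few arrays there are. Median signals ran from 34.1 to 36.8 on the wild-type arrays and from 31.8 to 42.9 on the mutant arrays. Mutant array 1 was the least like its group: on the log2 scale its correlation with the other mutant arrays across tested genes, which are not independent replicates, was 0.970 and 0.976, against 0.990 between those arrays. The 3′ probe set of ACT1 was as bright as its 5′ probe set on mutant array 1 (a ratio of 1.00), whereas elsewhere this ratio, which reflects how intact the RNA is, ranged from 1.498 to 1.64. For SPT15 it was 5.71 on mutant array 1, inside the wild-type range of 5.02 to 6.15, and lower on mutant arrays 2 and 3, at 2.79 and 3.35. Of the genes that mark mating type, STE2 and MFA2 of a cells read 137 to 217 and 1049 to 2430 over the 6 arrays, and STE3 and the alpha-factor gene of alpha cells 8.5 to 15.7 and 12.9 to 26.2. Log2 changes are mutant minus wild type on the log2(signal + 3.605) scale, with the moderated SE of limma and Benjamini-Hochberg adjusted p-values over all 5380 genes. A gene is called at an adjusted p under 0.05. Of the mating-type genes above, MFA2 was lower on every mutant array (means of 2044 to 1349). STE3 was higher on each (means of 9.37 to 14.1), with signals near 6.74, the lowest mean kept by the filter. Neither of these mating-type genes was called. HO, also on the planned list of such genes, was called lower, from a mean of 138 to 55.6 (log2 -1.27 ± 0.18, limma adjusted p = 0.0120). Whether the strains differ beyond histone H3 was not tested.

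Of the 55 tested members, 4 were higher in the mutant, namely the arginine genes ARG7, ARG4 and ARG1 and the histidine gene HIS3. None was called lower, although 7 lower and 8 higher members had an unadjusted limma p under 0.05. Among all tested genes 2.81% were called higher and 1.45% lower, and 22.2% had an unadjusted p under 0.05 in either direction, against 15 of the 55 members. The members split evenly in direction, with 28 above 0 (54.9% of all genes) and a median log2 change of 0.02, beside a median of 0.04 over all tested genes. In 10 members all 3 mutant values lay above all wild-type values and in 11 all lay below, where the shares over all genes were 16.7% and 12.2%. Scaling the arrays in other ways changed the balance of calls: it was 4 higher and 3 lower with quantile normalization, 2 higher and 1 lower with a common median, and 3 higher and 0 lower with the mutant arrays' constants divided out. The balance over all tested genes moved as well, from 151 higher and 78 lower as deposited to 181 and 187, 156 and 202, and 183 and 165 under those scalings in the same order.

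**Figure D1:**
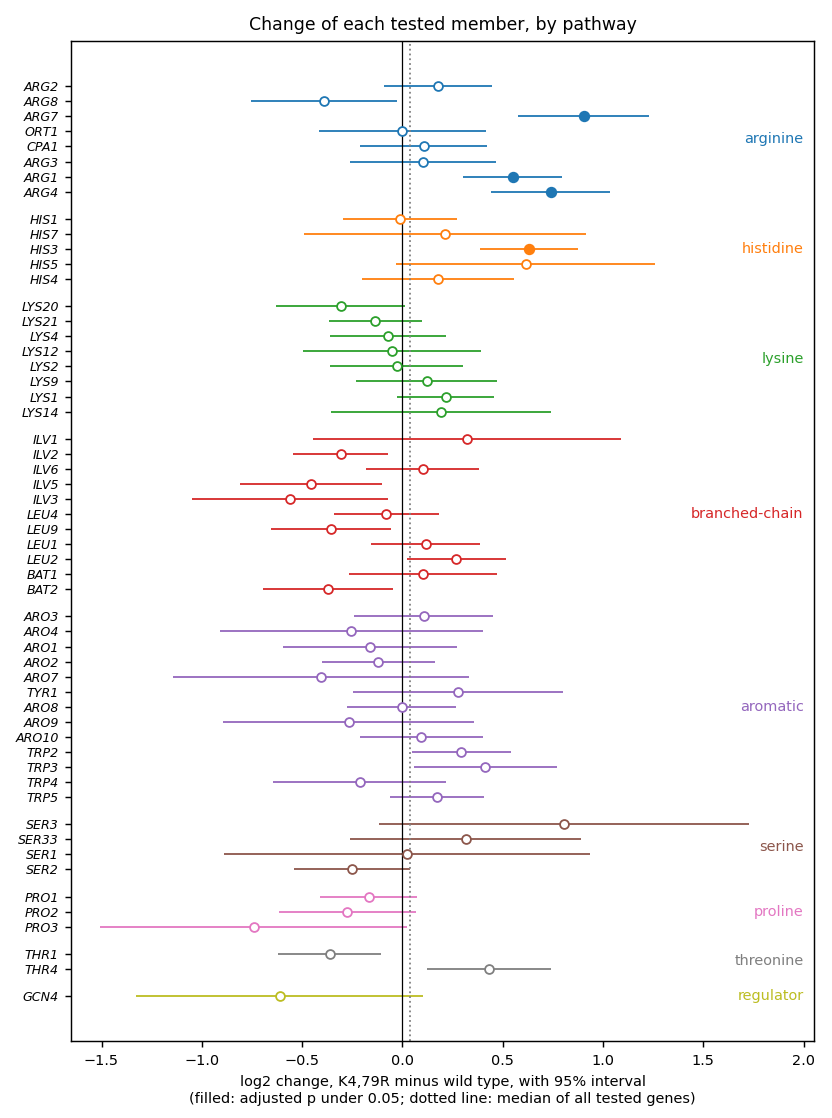
Log2 change of each of the 55 tested members, mutant minus wild type, on the horizontal axis, with its 95% interval, grouped by pathway; filled circles are the 4 members at an adjusted p under 0.05 and the dotted line is the median of all tested genes. ARG7, ARG1, ARG4 and HIS3 lie to the right, while the 3 proline genes and GCN4 lie to the left with intervals that include 0.

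Arginine synthesis held 3 of the 4 called genes, and those 3 code for separate steps. That is 3 of its 8 tested genes, where 2.81% of all tested genes were called higher. ARG7 (YMR062C) encodes the mitochondrial ornithine acetyltransferase, which recycles the acetyl group in ornithine synthesis. Its signal was 148, 152 and 133 in wild type and 318, 279 and 228 in the mutant, with arrays given in the order 1, 2 and 3 here and below. Every mutant array lay above every wild-type array, and mutant array 3 was the lowest of its group. The change was 1.87-fold (log2 0.90 ± 0.14 SE, limma adjusted p = 0.0165). ARG4 (YHR018C) encodes argininosuccinate lyase, which releases arginine in the last step. It read 237, 206 and 184 in wild type against 344, 386 and 322 in the mutant, again without overlap, a 1.67-fold rise (log2 0.74 ± 0.13, limma adjusted p = 0.0244). ARG1 (YOL058W), argininosuccinate synthase, makes the substrate of that step. It read 698, 708 and 755 in wild type and 1119, 967 and 1086 in the mutant, a 1.46-fold rise (log2 0.55 ± 0.11, limma adjusted p = 0.0324).

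**Figure D2:**
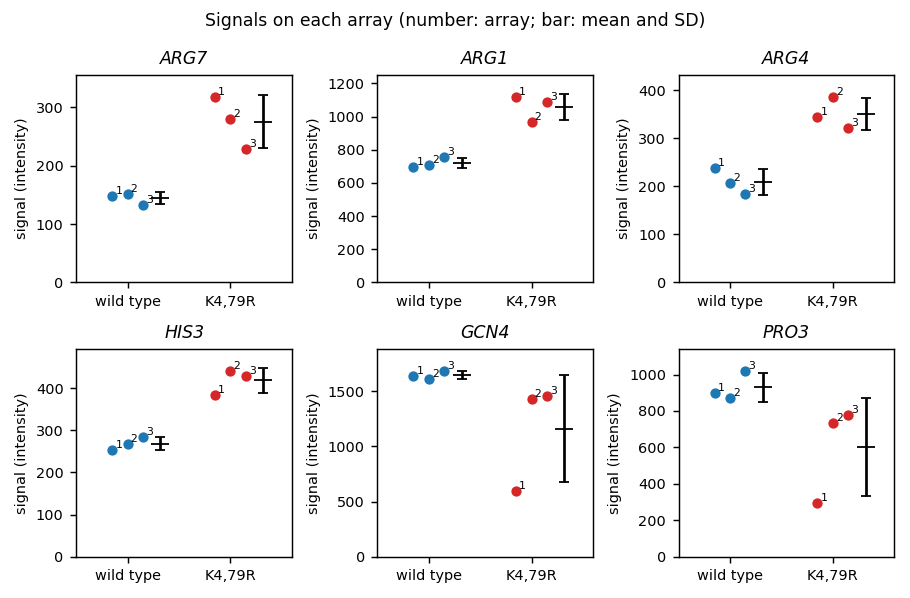
Signal (intensity, linear axis from 0) on each array for the 4 called members and for GCN4 and PRO3; the numbers beside the points are array numbers and the bars are the mean and SD of 3 arrays. In the called members all mutant points lie above the wild-type points, while for GCN4 and PRO3 mutant array 1 lies far below the other 5 arrays.

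The other 5 tested arginine genes were not called. ARG8, the acetylornithine aminotransferase that acts just before Arg7 in the mitochondrion, had the largest negative change of the pathway. It read 43.6, 43.3 and 44.3 in wild type and 26.6, 35.9 and 35.8 in the mutant (log2 -0.39 ± 0.16, limma adjusted p = 0.198), so the groups did not overlap and the change ran opposite to that of ARG7. ARG2, which encodes the acetylglutamate synthase of the entry step, went from a mean of 103 ± 3.61 (SD, n = 3) to 117 ± 9.41. CPA1, a subunit of the carbamoyl phosphate synthetase that feeds the arginine branch, and ARG3, the ornithine carbamoyltransferase that uses its product, were at log2 0.11 ± 0.14 and 0.10 ± 0.16. ORT1, the carrier that moves ornithine out of the mitochondrion, went from 45.2 ± 5.30 to 45.6 ± 9.18. In CPA1, ARG3, ARG2 and ORT1 the groups overlapped. The median over the 8 tested arginine genes was 0.14, the pathway median per array lying between 0.20 and 0.25 above the wild-type mean on all mutant arrays. Over all tested genes the same median was -0.106, 0.142 and 0.0997 on mutant arrays 1, 2 and 3. With a common median for the arrays the arginine median was 0.04.

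The calls of the 3 arginine genes and HIS3 depended on which arrays were used. Leaving out wild-type array 1, 2 or 3 or mutant array 2 left none of the 4 called, at limma adjusted p-values between 0.0604 and 0.172. Without mutant array 3 ARG7 alone was called (adjusted p = 0.0310). Without mutant array 1 all 4 were called, at adjusted p-values between 0.00518 and 0.0167. ARG1 was also not called with a common median (adjusted p = 0.173), with the constants divided out (0.0674) or without the intensity trend (0.0517), nor HIS3 with a common median (0.0535) or with the mean of its probe sets (0.0849). Their log2 changes kept their direction: over all 16 alternatives ARG7 stayed between 0.79 and 1.03, ARG4 between 0.64 and 0.83, ARG1 between 0.45 and 0.61, and HIS3 between 0.53 and 0.69.

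Among the histidine genes HIS3 (YOR202W), the imidazoleglycerol-phosphate dehydratase gene and a common strain marker, was the called member. Its brighter probe set read 253, 267 and 285 in wild type and 384, 440 and 430 in the mutant, with no overlap, a 1.55-fold rise (log2 0.63 ± 0.11, limma adjusted p = 0.0214). A second HIS3 probe set read 84.9, 83.7 and 73.1 in wild type and 77.6, 128 and 129 in the mutant, so that mutant array 1 fell within the wild-type range. It was at log2 0.42 ± 0.21 and not called in the fit over all probe sets (limma adjusted p = 0.286), and the mean of both probe sets was not called either (log2 0.53, adjusted p = 0.0849). HIS5, the histidinol-phosphate aminotransferase gene, was at 0.61 ± 0.28 and overlapped, with 76.9, 73.5 and 46.1 in wild type against 65.6, 126 and 120 in the mutant. It was called without mutant array 1 (log2 0.91, limma adjusted p = 0.0216), a fit in which 16.1% of all genes were called higher. With any other array left out the limma adjusted p of HIS5 lay between 0.322 and 0.526. HIS1, which encodes the first enzyme of the pathway, had the only negative change. It read 1132, 1117 and 1243 in wild type and 1010, 1262 and 1203 in the mutant (log2 -0.01 ± 0.12), with mutant array 1 lowest of all. HIS4, a multifunctional enzyme and a classical Gcn4 target, was at 0.18 ± 0.16 and HIS7, the glutamine amidotransferase and cyclase, at 0.21 ± 0.31.

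GCN4 (YEL009C) itself was lower on average but not called. Its signal was 1642, 1612 and 1683 on the wild-type arrays and 600, 1426 and 1455 on the mutant arrays. All mutant values lay below all wild-type values, and mutant array 1 was far lower than the other mutant arrays. The log2 change was -0.61 ± 0.31 (limma adjusted p = 0.289), with a 95% interval from -1.33 to 0.10. Without mutant array 1 it was -0.19 (limma adjusted p = 0.240). On that array the ACT1 3′ to 5′ ratio given above was also lowest, and its part in the GCN4 value was not tested.

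The 14 genes known to control GCN4 translation or Gcn4 stability were all tested and none was called in limma, although 1 higher and 3 lower had an unadjusted p under 0.05, where the share over all genes was 22.2%. Their median log2 change was -0.06. GCD7, a subunit of the nucleotide exchange factor eIF2B, was lowest: it read 233, 254 and 260 in wild type and 49.1, 153 and 163 in the mutant (log2 -1.18 ± 0.39, adjusted p = 0.131). GCD11, which encodes the gamma subunit of eIF2, read 1024, 966 and 1192 against 711, 832 and 797 (log2 -0.44 ± 0.12, adjusted p = 0.0898). In both the groups did not overlap, and mutant array 1 was the lowest array. Of the 14, mutant values all lay below wild type in 3, these 2 and GCN3 (-0.35 ± 0.15), beside 12.2% of all genes. They all lay above in 1, SUI2, which encodes the alpha subunit of eIF2 (0.30 ± 0.12), beside 16.7% of all genes. GCD6, another eIF2B gene, was at 0.28 ± 0.16 with overlap. These genes were named after their values were seen. The kinase gene GCN2 was at 0.26 ± 0.18 and PCL5, a cyclin that takes part in Gcn4 turnover and is itself a Gcn4 target, at 0.41 ± 0.19.

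Isoleucine, valine and leucine genes held 5 of the 11 members whose mutant values all lay below the wild-type values. That is 5 of the pathway's own 11 genes, where the share over all genes was 12.2%. None of them was called as deposited, and 5 lower and 1 higher had an unadjusted limma p under 0.05, beside 22.2% of all genes in either direction. ILV2, ILV5 and ILV3 encode the successive enzymes shared by the isoleucine and valine routes: acetolactate synthase, acetohydroxyacid reductoisomerase and dihydroxyacid dehydratase. ILV3 (YJR016C) read 674, 717 and 798 in wild type and 341, 600 and 583 in the mutant (log2 -0.56 ± 0.21, limma adjusted p = 0.174). The mutant arrays were all lower, array 1 most of all, and without it the change was -0.30 (limma adjusted p = 0.0831). ILV5 was at -0.45 ± 0.15 (limma adjusted p = 0.138) and ILV2 at -0.31 ± 0.10 (limma adjusted p = 0.136). With quantile normalization ILV3, ILV5 and BAT2 were called lower (limma adjusted p = 0.0389, 0.0375 and 0.0494), and with a common median ILV3 alone was (0.0412); over all genes the lower calls went from 78 to 187 and 202 under these scalings.

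In the same family, ILV6, the regulatory subunit of acetolactate synthase, was at 0.10 ± 0.12, unlike its catalytic partner ILV2. ILV1, the threonine deaminase that starts isoleucine synthesis, had the largest positive change. It read 507, 428 and 250 in wild type and 299, 665 and 538 in the mutant (log2 0.32 ± 0.33), so that the groups overlapped widely. In the leucine branch LEU9, a minor isopropylmalate synthase gene, read 165, 160 and 160 against 106, 140 and 133, without overlap (log2 -0.35 ± 0.13, limma adjusted p = 0.166). LEU4, the major gene for that step, was at -0.08 ± 0.11 and LEU1, the isomerase, at 0.12 ± 0.12. The cytosolic aminotransferase gene BAT2 was at -0.37 ± 0.14 and its mitochondrial counterpart BAT1 at 0.10 ± 0.16.

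No aromatic gene of the 13 tested was called in limma; 2 had an unadjusted p under 0.05, both higher, beside 22.2% of all genes in either direction. These were the tryptophan genes TRP2 and TRP3, whose products form the anthranilate synthase complex. TRP3 (YKL211C) read 92.6, 99.1 and 83.1 in wild type and 101, 142 and 129 in the mutant, without overlap (log2 0.41 ± 0.15, limma adjusted p = 0.168). TRP2 was at 0.29 ± 0.11, also without overlap, and TRP5, the tryptophan synthase gene, was the other aromatic gene with every mutant value above wild type (0.17 ± 0.10). That is 3 of the 13 tested aromatic genes, beside 16.7% of all genes. TRP4, the anthranilate phosphoribosyltransferase that acts next after Trp2 and Trp3, went the other way: it read 195, 186 and 238 against 236, 153 and 152. Without mutant array 1 TRP3 was called higher (log2 0.55, limma adjusted p = 0.0161) and TRP4 lower (log2 -0.42, limma adjusted p = 0.0442). Of all genes, 16.1% were called higher and 4.83% lower in that fit. With any other array left out the limma adjusted p lay between 0.303 and 0.377 for TRP3 and between 0.597 and 0.835 for TRP4.

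In the shared stem and the phenylalanine and tyrosine branch, ARO7, the chorismate mutase gene, had the largest negative change. It read 134, 118 and 132 in wild type and 51.3, 133 and 127 in the mutant (log2 -0.40 ± 0.32). Mutant arrays 2 and 3 lay within the wild-type range and array 1 far below it, and without array 1 the change was 0.02. ARO4, a tyrosine-inhibited DAHP synthase gene, had the same form, with 304 on mutant array 1 beside 627 and 723 on the others and 601 to 629 in wild type. ARO3, ARO1, ARO2, ARO8 and ARO10 lay between -0.16 and 0.11, ARO9 at -0.27 ± 0.27 and TYR1 at 0.28 ± 0.23, all with overlapping groups.

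The 8 lysine genes lay between -0.31 and 0.22, the narrowest range of the 8 pathways. None had an unadjusted limma p under 0.05, beside 22.2% of all genes. LYS20 (YDL182W) and LYS21, which encode homocitrate synthases of the entry step, were both lower without overlap, beside 12.2% of all genes. LYS20 read 2932, 3199 and 3595 in wild type and 2775, 2296 and 2786 in the mutant (log2 -0.31 ± 0.14, limma adjusted p = 0.245), and LYS21 was at -0.13 ± 0.10. A further probe set listed under both genes was at -0.29 ± 0.14. At the other end of the pathway LYS1, the saccharopine dehydrogenase that forms lysine, read 484, 460 and 540 against 589, 548 and 585 (log2 0.22 ± 0.10, limma adjusted p = 0.271). Every mutant array lay above wild type for LYS1, as for 16.7% of all genes. LYS4, LYS12, LYS2 and LYS9, which act between them, lay from -0.07 to 0.12. The pathway's transcription factor gene LYS14 had a low signal, 17.7 ± 2.71 in wild type and 21.5 ± 7.98 in the mutant.

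Of the 4 serine genes none was called in limma or had an unadjusted p under 0.05, beside 22.2% of all genes. SER3 (YER081W), a phosphoglycerate dehydrogenase gene repressed in serine-rich medium by transcription of upstream noncoding RNA, had the largest change. It read 30.6, 23.3 and 25.8 in wild type and 22.3, 85.6 and 58.8 in the mutant. Mutant arrays 2 and 3 were far above wild type and mutant array 1 below it. The change was 0.81 ± 0.40 (limma adjusted p = 0.282), and without mutant array 1 it was 1.31 and called (limma adjusted p = 0.00551). In that fit 16.1% of all genes were called higher. With any other array left out the limma adjusted p of SER3 lay between 0.409 and 0.556. SER1, the phosphoserine aminotransferase gene, varied widely between mutant arrays, at 225, 230 and 269 in wild type and 118, 278 and 440 in the mutant (log2 0.02 ± 0.40), and its sign turned with each other scaling. SER2, the phosphatase of the last step, read 173, 165 and 140 against 145, 126 and 128 (log2 -0.25 ± 0.13), where mutant array 1 overlapped the wild type. SER33, the paralog of SER3, was at 0.31 ± 0.25 with overlap.

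The 3 proline genes were all below 0, with a median of -0.27. None was called in limma or had an unadjusted p under 0.05, beside 22.2% of all genes. PRO3 (YER023W), the pyrroline carboxylate reductase gene, read 899, 871 and 1019 in wild type and 295, 736 and 779 in the mutant, the groups not overlapping (log2 -0.74 ± 0.33, limma adjusted p = 0.237). Mutant array 1 again lay far lower, and without it the change was -0.29 (limma adjusted p = 0.0960). PRO1, glutamate kinase, was at -0.17 ± 0.10 and PRO2, the reductase that follows it, at -0.27 ± 0.15, both with overlapping groups.

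The 2 threonine genes moved apart, though neither was called. THR1 (YHR025W), homoserine kinase, read 1504, 1343 and 1581 in wild type and 1167, 1173 and 1094 in the mutant (log2 -0.36 ± 0.11, limma adjusted p = 0.108). THR4 (YCR053W), the threonine synthase that uses its product, read 340, 316 and 375 against 393, 488 and 522 (log2 0.43 ± 0.13, limma adjusted p = 0.111). The groups overlapped in neither gene, where 12.2% of all genes lay wholly below wild type and 16.7% wholly above. Without mutant array 1 THR4 was called (log2 0.55, limma adjusted p = 0.0128) and THR1 was at -0.38 (limma adjusted p = 0.0597). In that fit 16.1% of all genes were called higher. With any other array left out the limma adjusted p of THR4 lay between 0.181 and 0.335. Under the 3 other scalings THR4 stayed between 0.33 and 0.38 and THR1 between -0.46 and -0.40.

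**Figure D3:**
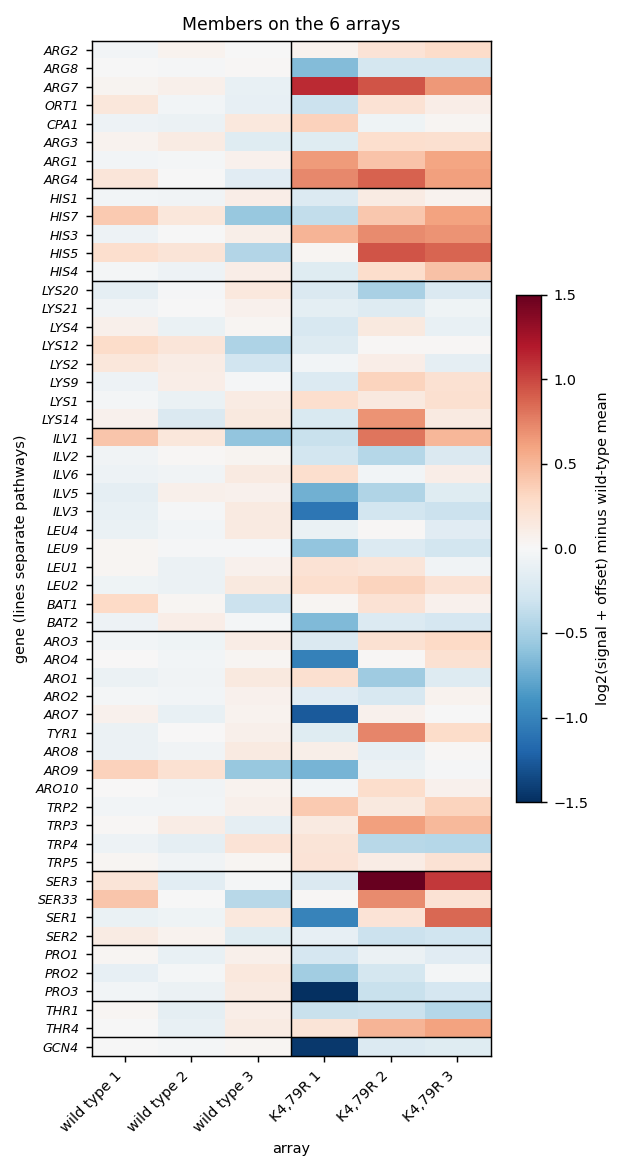
Log2(signal + offset) of each tested member on each of the 6 arrays, as the difference from the gene's wild-type mean (colour, red higher and blue lower); rows are genes, with lines between pathways. The 3 arginine genes and HIS3 are red on all mutant arrays, while PRO3, GCN4, ARO7, ARO4, SER1 and ILV3 are dark blue on mutant array 1.

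Mutant array 1 read more than 1.5-fold below both other mutant arrays for 11 members: HIS7, HIS5, ILV1, ILV3, ARO4, ARO7, ARO9, SER3, SER1, PRO3 and GCN4. That is close to the 18.4% of all tested genes for which it did so. None of the 3 called arginine genes was among the 11, and ARG7 was highest on that array. Such a gap widens the SE and so works against a call. Absence from the 11 is therefore no separate support for the called genes. Signals were compared as deposited, with constants of 0.922 on mutant array 1 and 1.09 and 1.11 on arrays 2 and 3. The constant of array 1 is the lowest of the mutant arrays. Gaps were not counted again with the constants divided out, so the part of array scale in them was not tested. Without mutant array 1, 8 members were called higher and 1 lower, beside 16.1% and 4.83% of all genes: THR4, TRP3, HIS5 and SER3 joined ARG1, ARG4, ARG7 and HIS3, and TRP4 was the lower one. The members' shares were thus at or below the background there.

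Several steps are served by a pair of isozymes, whose ratio on an array is nearly free of that array's scale. For 6 pairs the log2 ratio was set against its wild-type mean, and in none were the groups free of overlap. BAT1 over BAT2 differed by 0.47, from a wild-type range of -0.29 to 0.37 to mutant values of 0.69, 0.41 and 0.32. SER3 over SER33 differed by 0.49, with mutant array 1 at -0.23 and arrays 2 and 3 at 0.86 and 0.85. ARO3 over ARO4, LEU4 over LEU9 and ARO8 over ARO9 differed by 0.36, 0.27 and 0.26, and LYS20 over LYS21 by -0.17. These differences of ratios were not tested.

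HIS3, LEU2, LYS2 and TRP1 are often mutated or put in as selectable markers in laboratory strains, so their mRNA can depend on the alleles a strain carries. TRP1 (YDR007W) read 0.6, 0.3 and 3.1 in wild type and 1.11, 0.654 and 0.664 in the mutant. All 6 values lie below 6.74, the lowest mean among the probe sets kept, so TRP1 was not tested, while its pathway neighbours TRP2 to TRP5 were all above that limit. LEU2 (YCL018W) read 274, 270 and 316 against 342, 361 and 332 (log2 0.27 ± 0.11, limma adjusted p = 0.196), the mutant arrays all above wild type. Its other probe sets were at 0.69 ± 0.21 and 0.33 ± 0.17, both with a suffix for shared probes and neither called. LYS2 (YBR115C) read 331, 318 and 240 against 284, 314 and 266, with overlap (log2 -0.03 ± 0.14). Of other common marker genes, URA3 was near the filter on all arrays, between 9.87 and 15.7, MET17 was at 0.36 ± 0.13 and not called, and ADE2 was called lower, from 1100 ± 22.1 to 679 ± 24.5 (log2 -0.69 ± 0.10, limma adjusted p = 0.0116). Whether any of these differences comes from marker alleles was not tested.

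**Figure D4:**
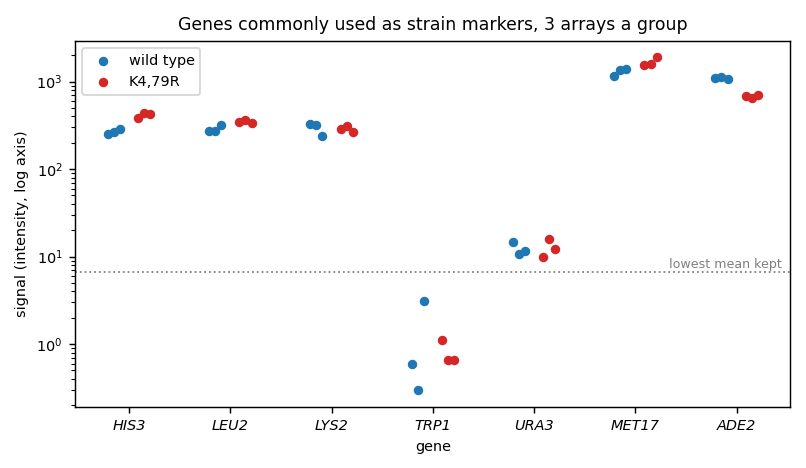
Signal (intensity, log axis) of 7 genes often used as strain markers on the 3 wild-type and 3 mutant arrays; the dotted line is the lowest mean signal kept by the filter. TRP1 lies below the line on all 6 arrays, and HIS3 lies above and ADE2 below its wild-type values on all mutant arrays.

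By pathway, the median log2 change was highest for histidine (0.21), serine (0.17) and arginine (0.14), and lowest for proline (-0.27) and branched-chain genes (-0.08). The medians of lysine (-0.04), aromatic (-0.0038) and threonine genes (0.04) lay between these. A scaling factor shifts every pathway alike: with a common median the median of all genes was -0.06, arginine was at 0.04, histidine at 0.11, branched-chain at -0.18 and proline at -0.38. The threonine median changed sign with all 3 other scalings, to values between -0.07 and -0.01. Without mutant array 1 the medians of histidine and serine went to 0.50 and 0.50, and those of the aromatic and lysine genes changed sign, to 0.12 and 0.02, beside 0.12 for all genes.

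**Figure D5:**
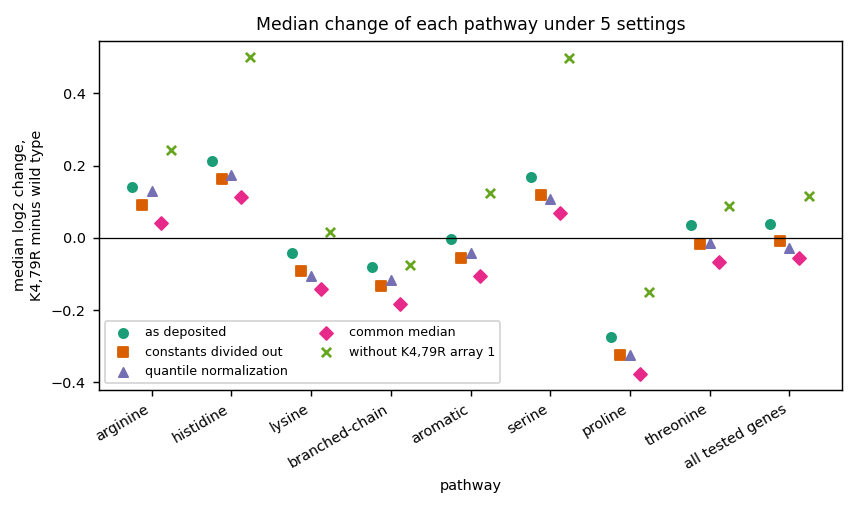
Median log2 change of each pathway, mutant minus wild type, as deposited, under 3 other scalings of the arrays and without mutant array 1, with all tested genes at the right. A common median and dividing out the constants shift all pathways by similar amounts and quantile normalization by unequal ones, while leaving out mutant array 1 raises histidine and serine most, to 0.50 each.

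Genes of amino acid metabolism outside the list were examined in the same fit, where 2.81% of all genes were called higher, 1.45% lower and 22.2% had an unadjusted p under 0.05. Of 10 tested further biosynthesis genes none was called in limma (2 higher and 1 lower at an unadjusted p under 0.05); the homoserine dehydrogenase gene HOM6 was at -0.38 ± 0.12 and the aspartate kinase gene HOM3 at 0.32 ± 0.13. Of 10 pathway regulators none was called (1 higher and 1 lower unadjusted). The higher one was PHO2 (0.62 ± 0.23, signals of 6.2 to 19.6) and the lower one the leucine regulator LEU3 (-0.49 ± 0.21). The arginine regulators ARG80, ARG81 and ARG82 were at 0.03 ± 0.17, 0.25 ± 0.17 and 0.09 ± 0.22. None of 5 degradation genes was called (1 higher and 0 lower unadjusted). The higher one was PUT1 (0.41 ± 0.17), and PUT2 had the largest change (0.77 ± 0.36, with overlap). CAR1, the arginase gene whose transcription the arginine regulators activate when arginine is present, was at 0.26 ± 0.16. Of 17 amino acid permease and sensor genes none was called (2 higher and 1 lower unadjusted). The higher ones were AGP2 and AGP1 (0.33 ± 0.13), and the lower one HIP1 (-0.26 ± 0.11). AGP2 came nearest, from 7.5, 10.3 and 9.1 in wild type to 15.2, 15.2 and 17.1 in the mutant (log2 0.63 ± 0.15, limma adjusted p = 0.0560). Its wild-type signals lay near 6.74, the lowest mean kept by the filter. GAP1, the general permease, was at 0.31 ± 0.14 and CAN1, the arginine permease, at 0.20 ± 0.18.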

How the data were processed

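The authors deposited an intensity for each probe set on each array, not log-transformed, made with MAS5 per the submitters' processing notes. Wild-type values come in steps of 0.1, and mutant values in the same steps (within 0.001 of a step) times a constant of 0.922, 1.09 or 1.11 on arrays 1, 2 and 3. Trimmed means, 2% off each end, differed 1.199-fold, under the 1.2-fold limit for rescaling, so the values were used as deposited. Of 9335 probe sets, 60 controls were left out, and of the other 9275, 6504 have 1 listed gene, 328 several and 2443 none; symbols follow RefSeq assembly R64. The 20% with the lowest mean over all arrays were removed, and a gene was read from its brightest probe set. An offset of 3.605, 0.1 of the median array median, was added before log2, which understates changes of low signals.

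Mutant and wild type were compared with limma 3.58.1 in R 4.3.3 (lmFit, eBayes with intensity trend, two-sided). Tested on simulated data of 5380 genes in 3 against 3 arrays, with 50 genes changed at each size, it recovered 42% at 1.5-fold, 70% at 2-fold and 98% at 4-fold. Of its calls, 5.49% were unchanged genes. Noise was drawn independently for each gene and array, so no simulated array departed as a whole, as mutant array 1 did. These shares may therefore not hold for the present arrays. The alternatives were other scalings, offset, filters, probe set rules, no trend, a replicate block and each array left out. The members and lists were chosen with earlier results of these data known, and list counts carry no list test. Values on every array are given for called members, GCN4, marker genes and the extreme members of each pathway, and for further genes chosen after their values were seen. A promoter motif search was planned and is not reported here. Same-numbered arrays did not deviate together, with correlations across genes of -0.153, 0.0663 and -0.0183.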

Additional observations from a re-analysis of the deposited data

How the results depend on the processing

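Over 16 alternatives, 40 of the 55 tested members kept the sign of their change in every one, and 2, ARO10 and SER1, changed it under a scaling. No called member changed sign. The number of members called higher, 4 as reported, was 2 with a common median and 0 with the replicate block (adjusted p from 0.0598 for ARG7 to 0.0979 for ARG1), and ran from 0 to 8 with 1 array left out. The number called lower, 0 as reported, was 3 with quantile normalization and 1 with a common median, and ran from 0 to 1 with 1 array left out. Of the related genes that are no member, 0 were called higher and 1 lower as reported. The lower count was 4 with quantile normalization, 2 with a common median and 0 with the replicate block; the higher count was 1 with the constants divided out and 1 without the intensity trend; with 1 array left out they ran from 0 to 8 higher and 0 to 4 lower. The arginine median, 0.14, was 0.042 with a common median and 0.091 with the constants divided out, and from 0.14 to 0.24 with 1 array left out. With a common median the branched-chain median was -0.18 and the aromatic one -0.11; with 1 array left out the aromatic median ran from -0.047 to 0.12 and the serine median from 0.023 to 0.50. Other pathway medians moved by less than the spread between arrays. The replicate block, which pairs arrays that share only a number, left 18 higher and 6 lower genes of the 151 and 78 called over the whole array. The lower count there was 187 with quantile normalization (181 higher), 202 with a common median (156 higher), 165 with the constants divided out (183 higher) and 50 without the intensity trend (137 higher). Leaving out 1 array gave 16 to 864 higher and 5 to 260 lower genes, the highest of both without mutant array 1. The block and an array left out also reduce the residual degrees of freedom. Otherwise the cause of each change was not tested. The motif search with its longer form was not run. With 3 arrays a group, changes of about 1.5-fold were mostly missed in simulated data, so members not called may still differ.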

Other observations

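Wild-type array 3 read over 1.5-fold below both other wild-type arrays for 5 members, HIS7, HIS5, LYS12, ILV1 and ARO9, and for 5.15% of all tested genes. For 4 members, HIS7, HIS5, ILV1 and ARO9, both wild-type array 3 and mutant array 1 were over 1.5-fold below the other arrays of their group, in signals as deposited. That is 7.27% of the 55 tested members, and 1.77% of all tested genes met both conditions. HIS7 read 208, 178 and 105 in wild type and 122, 210 and 241 in the mutant, so that wild-type array 3 and mutant array 1 were the lowest of the 6. ARO9 read 182, 168 and 95.2 against 86.8, 134 and 141, with the same arrays lowest. These genes were singled out after their values were seen. Deviations from the group means were also correlated between arrays across all tested genes, which are not independent replicates. For wild-type array 3 and mutant array 1 the correlation was 0.209. Over all pairs it ran from -0.265 (wild-type array 3 and mutant array 2) to 0.267 (wild-type array 1 and mutant array 2). Deviations sum to 0 within a group, so these correlations are tied to one another.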
